A study of Rattus norvegicus and Mus musculus with 12 samples.

Results

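The genes examined here encode 10 transcription factors of the AP-1 family and of the early response to stimulation, namely Fos, Fosb, Fosl1, Fosl2, Jun, Junb, Jund, Atf3, Egr1 and Maff. They were chosen by name, and each of the 10 was found once among the 19687 genes of the rat table and once among the 28603 genes of the mouse table. The 12 RNA-seq libraries came from primary articular chondrocytes of newborn SD (Sprague–Dawley) rats and C57BL/6 mice, 24 h old, used at passage 1. The rat control group (RC) and the mouse control group (MC) received no cytokine. The rat model group (RM) and the mouse model group (MM) received the inflammatory cytokine IL-1β at 20 ng/ml for 24 h. All 4 groups held 3 libraries, described as independent samples without saying whether these came from separate animals, so P values measure the spread between these samples. The strain labels of the mouse libraries run from C57BL/6 to C57BL/9, whereas the methods name C57BL/6 only.

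AP-1 is a dimer of a Jun protein with a Fos, ATF or Maf protein, held together by a leucine zipper and bound to DNA through a neighbouring basic region. Jun proteins can pair with one another, whereas Fos proteins need another partner. Many of these genes are early response genes, whose transcripts appear within minutes of a stimulus and decay rapidly. In chondrocytes, IL-1 signals through MAP kinases to AP-1 and in parallel through NF-κB, and AP-1 is known as an activator of matrix metalloproteinase genes.

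Promoter sequences of the genes with the largest rises in rat (Junb, Fosl1 and Maff) are shown together with that of Jund, which did not pass the test in rat. They are the 250 bases before the gene start in the RefSeq table of rat build GRCr8, which held 7 of the 10 genes (not Fos, Jun or Atf3). Capitals mark TGACG or its reverse complement CGTCA, the core of the cAMP response element (CRE), and the full CRE TGACGTCA where it occurs. The Fosl1 promoter lies at chr1:212183635-212183884 (plus strand), that of Junb at chr19:40080876-40081125 (plus strand), that of Maff at chr7:112792537-112792786 (plus strand) and that of Jund at chr16:18769772-18770021 (minus strand).
Fosl1: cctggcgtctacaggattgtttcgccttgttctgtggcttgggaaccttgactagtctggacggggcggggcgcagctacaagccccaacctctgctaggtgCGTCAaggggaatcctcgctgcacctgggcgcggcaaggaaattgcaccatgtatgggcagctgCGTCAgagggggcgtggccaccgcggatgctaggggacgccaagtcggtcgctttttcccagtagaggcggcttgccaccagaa
Junb: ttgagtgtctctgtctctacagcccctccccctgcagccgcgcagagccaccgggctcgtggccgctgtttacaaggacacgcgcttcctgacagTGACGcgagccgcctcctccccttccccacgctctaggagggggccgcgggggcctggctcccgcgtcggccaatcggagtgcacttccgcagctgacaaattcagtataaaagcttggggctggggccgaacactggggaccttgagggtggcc
Maff: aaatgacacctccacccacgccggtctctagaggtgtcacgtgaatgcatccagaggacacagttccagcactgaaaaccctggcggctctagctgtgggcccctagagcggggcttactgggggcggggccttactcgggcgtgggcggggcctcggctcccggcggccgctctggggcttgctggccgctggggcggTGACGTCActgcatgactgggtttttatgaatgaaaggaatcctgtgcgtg
Jund: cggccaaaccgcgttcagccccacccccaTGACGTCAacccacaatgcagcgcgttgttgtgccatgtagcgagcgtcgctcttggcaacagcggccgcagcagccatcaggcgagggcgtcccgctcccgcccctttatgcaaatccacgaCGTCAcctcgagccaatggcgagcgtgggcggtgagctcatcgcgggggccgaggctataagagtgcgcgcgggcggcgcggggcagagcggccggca

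The CRE is bound by ATF and CREB proteins and by some AP-1 dimers. TGACGTCA began 51 bases before the start of Maff and 221 bases before the start of Jund, and it occurred in 2 of the 7 promoters and in 1.59% of the 33469 rat promoters searched on both strands. The core TGACG, which overlaps the CRE, occurred in 5 of the 7 (Egr1, Fosl1, Junb, Jund and Maff) and in 18.2% of all promoters. The AP-1 site TGACTCA occurred in 0 of the 7 and in 4.05% of all promoters. The EGR site GCGTGGGCG occurred in the Jund and Maff promoters and in 0.48% of all, the CArG box (the site of serum response factor) in the Egr1 promoter and in 1.5% of all, and the NF-κB site in 0 of the 7 and in 6.33% of all. These matches describe the letters in the window only.

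Total counts on genes were 20169272 to 25903459 per rat library and 16841580 to 20048322 per mouse library, so that 3 counts in 1 library corresponded to 0.116 to 0.178 CPM. Levels are given as FPKM, a count scaled by the gene length and by the library total. Changes are log2 fold changes of model over control from the quasi-likelihood test of edgeR after TMM scaling, which corrects for libraries in which a few genes take a large share. P values were Benjamini-Hochberg adjusted over all genes tested in a species, with a threshold of 0.05. TMM factors were 0.994 to 1.008 in rat, 1.099 to 1.104 in MC and 0.905 to 0.911 in MM, so that a fitted change in mouse exceeds the ratio of the FPKM values. Over all mouse genes tested the median log2 fold change lay at -0.02 under TMM and at -0.30 when library size was the sole scaling.

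The chondrocyte label was checked against 9 markers, all of which were detected and all of which fell in both species. Their summed FPKM was 4990 to 5630 in RC, 1977 to 2018 in RM, 2239 to 2284 in MC and 206.7 to 219.4 in MM libraries. Of 6 macrophage and leukocyte markers, 5 were listed for rat (not Itgam) and all 6 for mouse, so their sums cover different sets, at 16.3 to 18.4 FPKM in RC, 29.5 to 31.8 in RM, 5.62 to 5.98 in MC and 32.1 to 33.5 in MM libraries. In rat 2 of the 3 tested (Cd14 and Cd68) were higher and 1 (Csf1r) was lower in the model group, and in mouse all 3 were higher. Of the defining leukocyte marker Ptprc, 20 counts were found over the RC, 16 over the RM, 3 over the MC and 1 over the MM libraries, and Itgam was at 0 in mouse. The summed FPKM of 5 skeletal muscle markers was 6.40 to 7.28 in RC, 3.72 to 4.45 in RM, 5.52 to 6.40 in MC and 0.421 to 0.888 in MM libraries, with 1 of the 2 tested lower in rat and all 3 tested lower in mouse. Fibroblast markers summed to 738.2 to 808.8 FPKM in RC, 699.9 to 737.2 in RM, 54.3 to 57.6 in MC and 30.0 to 32.4 in MM libraries, with 1 higher and 1 lower of 6 tested in rat and 1 higher and 4 lower of 5 tested in mouse. Thy1 made up most of the rat sums, at a mean FPKM of 726.0 in RC and 660.1 in RM. In mouse its mean was 12.5 in MC and 3.48 in MM. Of the other fibroblast markers, Dpt, Postn and Dpp4 had a higher mean FPKM in MC than in RC, and Pdgfra and Pi16 a lower one. The part of such cells in the results below was not tested, and in bulk libraries fewer cells of a type and less RNA per cell cannot be told apart.

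In rat, 6 of the 10 genes rose with IL-1β (Fosl1, Fosl2, Jun, Junb, Maff and Egr1), Atf3 fell, and Fos, Fosb and Jund did not pass the test. In mouse, all 10 were upregulated, with 8 of them at a log2 fold change above 1.4, and the exceptions in size were Fos and Egr1. Of all 13303 rat genes tested, 18.3% were called higher and 16.8% lower in RM, beside which 6 and 1 of the 10 stood. Of all 14774 mouse genes tested, 37.4% were called higher and 37.7% lower in MM, beside 10 and 0 of the 10. The 0 came from edgeR, was also 0 at an unadjusted P under 0.05 and by DESeq2 and limma, and became 1 (Egr1) when libraries were scaled by size only. The median log2 fold change of the 10 genes was 0.39 in rat and 2.57 in mouse, against 0.01 and -0.02 over all genes tested.

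The criteria for differentially expressed genes (DEGs) used here were an unadjusted P below 0.05, an absolute log2 fold change of 0.85 or more, and a library that reaches an FPKM of 1. They read the fold criterion of the study, whose methods name neither a log scale nor a direction, as one on the log2 scale in both directions. By these, 3 of the 10 genes were upregulated in rat (Fosl1, Junb and Maff), where 4.64% of all genes tested were. None was downregulated in rat by edgeR or limma and 1, Atf3, by DESeq2, where 3.9% of all genes tested were by edgeR. In the main fit the rat values nearest the fold criterion were 0.96 for Maff, just inside, and -0.8455 for Atf3, just outside. Without RC replicate 1 Maff was at 0.81. In mouse, 8 of the 10 were upregulated DEGs (all but Fos and Egr1), where 12.6% of all genes tested were upregulated and 13.0% downregulated. The FPKM ranges of model and control did not overlap for 8 of the 10 genes in rat (all but Fos and Jund), against 47.8% of all genes tested, and for 9 of the 10 in mouse (all but Egr1), against 80.3%.

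**Figure D1:**
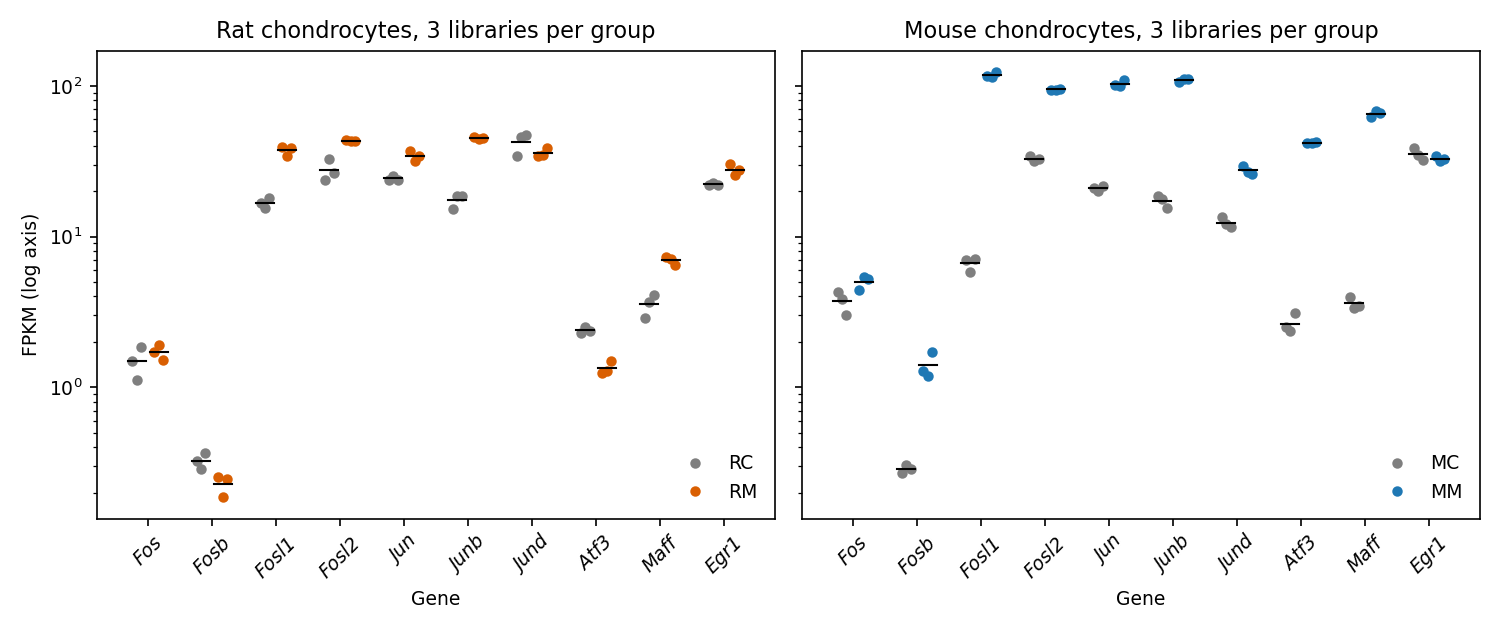
FPKM of the 10 genes in each library (points, log axis) with the mean of each group (black line), for rat RC (grey) and RM (orange) on the left and mouse MC (grey) and MM (blue) on the right. The mouse points of Fosl1, Atf3 and Maff are the farthest apart between the groups, whereas those of Egr1 overlap.

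Among the Fos proteins, Fosl1 (Fra-1) lacks the strong transactivation domain of Fos and is known for a slow and lasting induction. Its FPKM was 16.7, 15.4 and 17.9 in the RC libraries and 39.1, 34.3 and 38.8 in the RM libraries. In mouse it was 7.02, 5.81 and 7.11 in MC and 115.4, 114.9 and 123.4 in MM. Every model library was above every control library in both species, and the mouse control libraries lay below the rat ones on this scale while the mouse model libraries lay above. The log2 fold change was 1.15 ± 0.09 in rat (SE, adjusted P = 5.325e-06 by edgeR, 2.22-fold) and 4.42 ± 0.06 in mouse (adjusted P = 2.558e-60, 21.5-fold). In rat 96.7% and in mouse 98.5% of all genes tested had a lower value. The mouse gene (ENSMUSG00000024912, GRCm38 chr19:5447547-5455946) shares exon sequence with Ccdc85b on the opposite strand, which had 1790 counts over MC and 2618 over MM. Whether the counting used strand is not given in the sources used here, so reads of the pair cannot be told apart.

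Fosl2 (Fra-2), the other Fra protein and a factor known from cartilage and bone, was at 23.9, 32.6 and 26.3 FPKM in RC and at 43.6, 42.8 and 43.2 in RM. In mouse it was at 34.3, 31.6 and 32.4 in MC and at 94.3, 94.2 and 95.5 in MM. The groups did not overlap in either species, and RC replicate 2 stood above the other RC libraries. Fosl2 rose by a log2 fold change of 0.63 ± 0.11 in rat (SE, adjusted P = 0.001431, 1.55-fold) and 1.81 ± 0.03 in mouse (adjusted P = 5.283e-54, 3.50-fold). The lengths behind these FPKM differed, at 744 bases in rat and 9680 in mouse, so a level of Fosl2 is not comparable between the species.

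Fos, the archetype of the family, stayed at low levels. It was at 1.49, 1.11 and 1.85 FPKM in RC and at 1.72, 1.90 and 1.52 in RM, and these ranges overlapped, with a log2 fold change of 0.19 ± 0.23 (SE, adjusted P = 0.5502, 95% interval -0.32 to 0.71). In mouse it was at 4.30, 3.86 and 3.01 in MC and at 4.43, 5.37 and 5.20 in MM. The lowest MM library was only slightly above the highest MC library, and the log2 fold change was 0.71 ± 0.12 (adjusted P = 2.897e-07, 1.63-fold). Fos had 162 counts over RC and 191 over RM, against 453 over MC and 670 over MM.

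Fosb, whose gene also gives the truncated ΔFosB known from long-lasting stimulation, was the lowest of the 10 in all 4 groups. It was at 0.322, 0.288 and 0.367 FPKM in RC and at 0.252, 0.186 and 0.246 in RM, from 84 and 59 counts. The RM libraries were all lower, but the log2 fold change of -0.53 ± 0.28 did not pass the test (SE, adjusted P = 0.1614). The mouse values were 0.271, 0.304 and 0.285 in MC and 1.29, 1.19 and 1.72 in MM, from 93 and 494 counts, and it rose by a log2 fold change of 2.55 ± 0.18 (adjusted P = 2.752e-20, 5.86-fold). As FPKM, from lengths of 3741 bases in rat and 6243 in mouse, the MC libraries lay within the range of the RC libraries or just below it. The MM libraries were all above 1 FPKM.

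Jun (c-Jun), the most potent transactivator of the Jun proteins, was at 23.7, 25.4 and 23.8 FPKM in RC and at 37.0, 31.5 and 34.2 in RM. The mouse libraries were at 20.9, 20.0 and 21.8 in MC and at 100.8, 100.001 and 109.0 in MM. The control levels lay close together in the species, and the groups did not overlap in either. The log2 fold change was 0.48 ± 0.08 in rat (SE, adjusted P = 0.001006, 1.39-fold) and 2.58 ± 0.04 in mouse (adjusted P = 6.806e-56, 5.98-fold). The mouse gene (GRCm38 chr4:95049034-95052222) is a single exon that overlaps the antisense gene Junos, which had 194 counts over MC and 1060 over MM, with a log2 fold change of 2.59.

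Junb, which can restrain Jun and also activates targets of its own, was at 15.2, 18.6 and 18.5 FPKM in RC and at 45.5, 44.6 and 45.2 in RM. The mouse values were 18.5, 17.8 and 15.4 in MC and 106.2, 111.3 and 111.1 in MM. The RM libraries were nearly equal and far above the RC libraries, and Junb had the largest log2 fold change of the 10 in rat, 1.36 ± 0.09 (SE, adjusted P = 1.794e-06, 2.56-fold). The value in mouse was 2.95 ± 0.04 (adjusted P = 7.833e-56, 7.72-fold). In the mouse annotation Junb (GRCm38 chr8:84974484-84978718) overlaps exons of Prdx2 on the opposite strand, whose log2 fold change was 0.34.

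Jund, the Jun protein known for steady expression in resting cells, was the one member of the family without a rise in rat. It was at 34.2, 45.5 and 47.4 FPKM in RC and at 34.4, 34.8 and 38.6 in RM. RC replicate 1 lay below all RM libraries and the other RC libraries above them, and the log2 fold change was -0.25 ± 0.12 (SE, adjusted P = 0.1195). Without RC replicate 1 it was -0.40 with an adjusted P of 0.0003298, and the count of genes lower in RM was then 2. In mouse Jund was at 13.4, 12.1 and 11.5 in MC and at 29.4, 26.8 and 26.0 in MM, and it rose by 1.43 ± 0.07 (adjusted P = 1.93e-28, 2.70-fold) without overlap of the groups. An antisense gene, Gm11175, overlaps mouse Jund (GRCm38 chr8:70698949-70700616) and was not analysed here.

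Atf3, a stress-induced factor of the ATF/CREB family that often represses its targets, moved in opposite directions in the species. It was at 2.29, 2.50 and 2.34 FPKM in RC and at 1.24, 1.27 and 1.49 in RM, and it fell by 0.85 ± 0.15 on the log2 scale (SE, adjusted P = 0.001446, to 0.557 of control). In mouse it was at 2.50, 2.34 and 3.10 in MC and at 41.7, 41.5 and 42.7 in MM. As FPKM, the control libraries of both species lay in a like range, the RM libraries were all below it and the MM libraries far above. The lengths behind these FPKM were 2909 bases in rat and 2154 in mouse. Among all genes tested, the mean level stood above 24.4% in RC and 36.9% in MC. The log2 fold change in mouse was 4.26 ± 0.07 (adjusted P = 7.898e-53, 19.1-fold), above 98.4% of all genes tested, while the rat value was above 5.89%. Mouse Atf3 lies at GRCm38 chr1:191170296-191218039 and shares no exon with another gene.

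Maff, a small Maf protein that has a leucine zipper but no transactivation domain of its own, was at 2.90, 3.68 and 4.10 FPKM in RC and at 7.28, 7.14 and 6.50 in RM. In the mouse libraries it was at 3.94, 3.36 and 3.48 in MC and at 62.4, 67.7 and 65.8 in MM. The groups did not overlap in either species, and the control libraries again lay in a like range as FPKM. The lengths were 1941 bases in rat and 2594 in mouse, and the mean level stood above 30.7% of genes in RC and 43.2% in MC. Maff rose by a log2 fold change of 0.96 ± 0.14 in rat (SE, adjusted P = 0.000533, 1.94-fold) and 4.46 ± 0.06 in mouse (adjusted P = 1.909e-59, 22.0-fold), the largest of the 10 in mouse. The mouse gene lies at GRCm38 chr15:79346621-79359076 and overlaps no other annotated gene.

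Egr1, a zinc finger factor outside AP-1 that is induced through serum response factor, was at 22.0, 22.8 and 21.8 FPKM in RC and at 30.2, 25.4 and 27.6 in RM, without overlap. It rose by a log2 fold change of 0.30 ± 0.08 in rat (0.305, SE, adjusted P = 0.01352, 1.24-fold), and the call was lost without RC replicate 3 (0.29, adjusted P = 0.05335) or without RM replicate 1 (0.24, adjusted P = 0.06991). The mouse FPKM was 38.8, 34.8 and 32.2 in MC and 34.0, 31.7 and 32.5 in MM, and these ranges overlapped. The fitted log2 fold change in mouse was 0.17 ± 0.04 with TMM (adjusted P = 0.0001963, 1.13-fold). Its direction turned with library size alone (-0.11) and with limma on log2(FPKM + 1) (-0.10), both of which scale by the library total only. With relative log expression size factors and with DESeq2, which do not use TMM either, all 10 genes including Egr1 were called higher in MM. A direction for Egr1 in mouse therefore depends on the scaling, and the FPKM means were 35.3 ± 3.32 in MC and 32.7 ± 1.16 in MM (SD, n = 3 each).

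**Figure D2:**
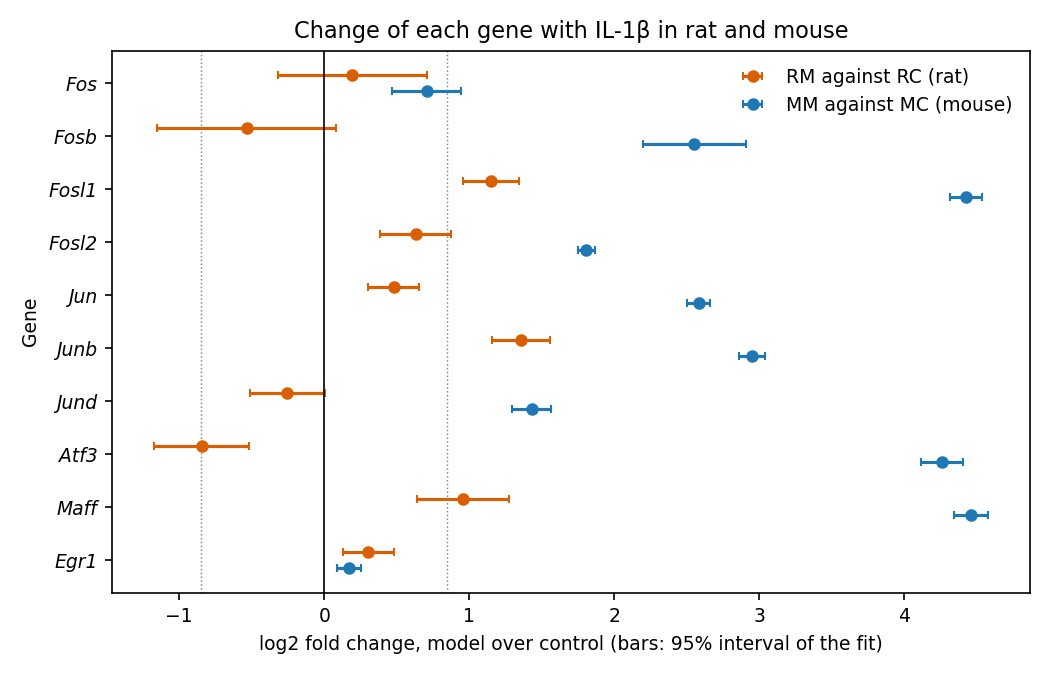
Log2 fold change of model over control for each of the 10 genes (x axis, points) with the 95% interval of the edgeR fit (bars), in rat (orange) and mouse (blue), with dotted lines at the fold criterion of 0.85 in either direction. The mouse point lies to the right of the rat point for 9 of the 10 genes, from Fos (0.71 against 0.19) to Atf3 (4.26 against -0.85), and Egr1 is the exception (0.17 against 0.30).

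Whether a change differed between the species was tested in a joint edgeR fit of all 12 libraries, as the log2 fold change in mouse minus that in rat, with P adjusted over the 10912 genes shared by symbol and tested in both. This fit shares its estimate of the spread between the species. The biological coefficient of variation, the spread between libraries beyond counting error, was 0.106 in rat and 0.032 in mouse. The SE of a difference, its interval and its P value can therefore look too precise for the rat data. For Fosl2 (0.1093 against 0.1108) and Atf3 (0.1473 against 0.1486) the SE was below that of rat alone. It was above for the others of the 10. The change was larger in mouse for 8 of the 10 genes, where 31.4% of all shared genes were larger in mouse and 32.3% larger in rat. The median difference was 1.89 over the 10 genes and -0.03 over all shared genes. By edgeR, 0 of the 10 had the larger change in rat, also at an unadjusted P under 0.05 and by DESeq2, and limma on log2(FPKM + 1) called 1, Egr1.

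The largest difference was that of Atf3, at 5.10 ± 0.15 (SE, adjusted P = 2.756e-14, 95% interval 4.79 to 5.42), above 99.7% of the shared genes. Maff followed at 3.50 ± 0.15 (adjusted P = 2.172e-12), Fosl1 at 3.28 ± 0.12 (adjusted P = 2.591e-13) and Fosb at 3.09 ± 0.32 (adjusted P = 2.741e-07). The Jun family differed by 2.10 ± 0.09 for Jun, 1.68 ± 0.15 for Jund and 1.59 ± 0.11 for Junb, with adjusted P values from 2.441e-12 to 4.101e-08. Fosl2 had the smallest difference that passed, 1.18 ± 0.11 (adjusted P = 6.544e-08). The difference of Fos was 0.50 ± 0.26 (adjusted P = 0.09711, 95% interval -0.04 to 1.05) and passed without RC replicate 2 (0.68, adjusted P = 0.02625). That of Egr1 was -0.13 ± 0.10 (adjusted P = 0.2663, 95% interval -0.35 to 0.08), and with library size alone it was -0.43 (adjusted P = 0.001282). All libraries of a species form 1 set, so species and any batch that follows it cannot be told apart.

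**Figure D3:**
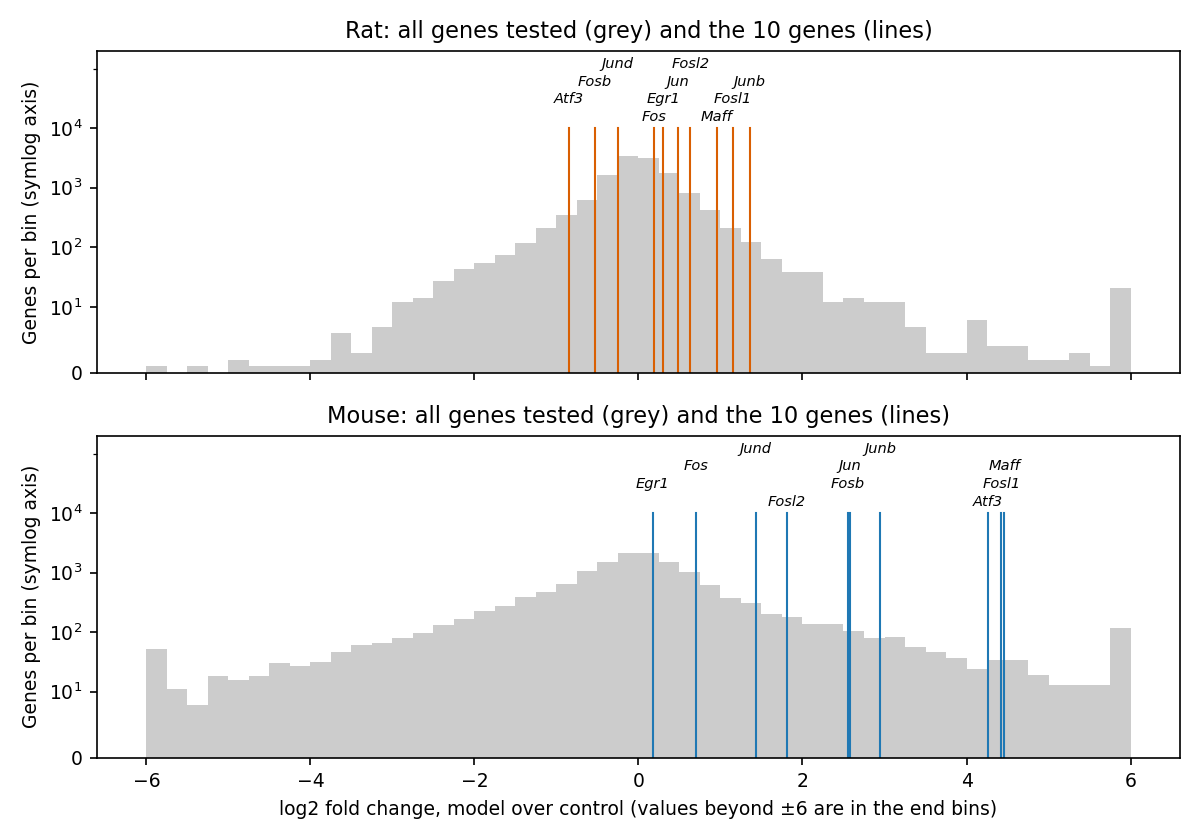
Number of genes per bin of log2 fold change (grey, symlog axis, values beyond 6 in either direction in the end bins) for the 13303 rat and 14774 mouse genes tested, with the 10 genes as coloured lines. In rat the lines run from -0.85 (Atf3, above 5.89% of genes tested) to 1.36 (Junb, above 97.7%). In mouse they run from 0.17 (Egr1, above 61.3%) to 4.46 (Maff, above 98.6%).

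Compared per length within a group, the order of the 10 genes changed with IL-1β. In RC the order of mean FPKM was Jund, Fosl2, Jun, Egr1, Junb, Fosl1, Maff, Atf3, Fos and Fosb, where Fosl2 and Jun, and Junb and Fosl1, overlapped as neighbours. In RM it was Junb, Fosl2, Fosl1, Jund, Jun, Egr1, Maff, Fos, Atf3 and Fosb, where Fosl1 overlapped Jund and Jund overlapped Jun. Junb thus moved from the fifth place to the top, and Jund from the top to the fourth. The level of Fosl2 in this order rests on its short rat length.

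In MC the order was Egr1, Fosl2, Jun, Junb, Jund, Fosl1, Fos, Maff, Atf3 and Fosb, where Egr1 overlapped Fosl2 and Fos overlapped Maff. In MM it was Fosl1, Junb, Jun, Fosl2, Maff, Atf3, Egr1, Jund, Fos and Fosb, where only Junb and Jun overlapped as neighbours. Egr1 led in MC and was the seventh in MM at a similar FPKM, while Fosl1 went from the sixth place to the first. That first place rests on a length of 1707 bases behind the FPKM, and with the 2033 bases of its merged exons in the annotation, an alternative chosen after seeing the data, the mean of Fosl1 in MM would be 99.0 FPKM, below the means of Junb and Jun and overlapping the Jun libraries. Among all mouse genes tested, the level of Fosl1 stood above 58.8% in MC and 97.9% in MM, that of Maff above 43.2% and 95.9%, and that of Atf3 above 36.9% and 93.1%. The highest of the 10 exceeded the lowest 130.1-fold in RC, 198.1-fold in RM, 122.9-fold in MC and 84.3-fold in MM.

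The makeup of the families was described as the share of each member in the summed FPKM of its family, without a test, since an exact permutation test of 3 against 3 cannot go below 0.1. The summed FPKM of Fos, Fosb, Fosl1 and Fosl2 was 46.1 ± 3.53 in RC and 82.5 ± 2.96 in RM (SD, n = 3 each). In mouse it was 43.5 ± 2.21 in MC and 219.0 ± 5.98 in MM. These sums rest on Fosl2 lengths of 744 bases in rat and 9680 in mouse. The sums and the shares in them are therefore not comparable between the species. Of the summed FPKM, Fosl1 made up 36.4% ± 4.52 in RC and 45.3% ± 1.68 in RM, and in mouse 15.3% ± 1.32 in MC and 53.8% ± 0.722 in MM. The share of Fosl2 was 59.6% ± 5.48 in RC and 52.4% ± 1.44 in RM, against 75.5% ± 0.658 in MC and 43.2% ± 0.838 in MM. The ranges of the Fosl1 share did not overlap in either species (31.2% to 39.4% and 43.3% to 46.3% in rat), and the member with the largest share was Fosl2 in every group but MM. This order depends on gene length, since without dividing by length Fosl2 made up 80.5% of the counts in MM and Fosl1 17.7%, and in RC Fosl1 53.6% and Fosl2 39.5%. Fos itself made up 3.25% ± 0.897 in RC, 2.08% ± 0.292 in RM, 8.55% ± 1.33 in MC and 2.28% ± 0.217 in MM.

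The summed FPKM of Jun, Junb and Jund was 84.1 ± 9.49 in RC and 115.3 ± 3.83 in RM (SD, n = 3 each), against 50.5 ± 2.12 in MC and 240.2 ± 5.22 in MM. Junb made up 20.7% ± 0.0921 in RC and 39.2% ± 0.982 in RM, and 34.1% ± 2.13 in MC and 45.6% ± 0.983 in MM. The share of Jund was 50.2% ± 3.13 in RC and 31.2% ± 1.65 in RM, and 24.4% ± 0.920 in MC and 11.4% ± 0.940 in MM. The share of Jun stayed within 29.1% and 29.7% in rat and 41.5% and 43.0% in mouse, as group means. In both species the share of Junb was thus higher and that of Jund lower in the model group, although Jund rose in mouse.

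**Figure D4:**
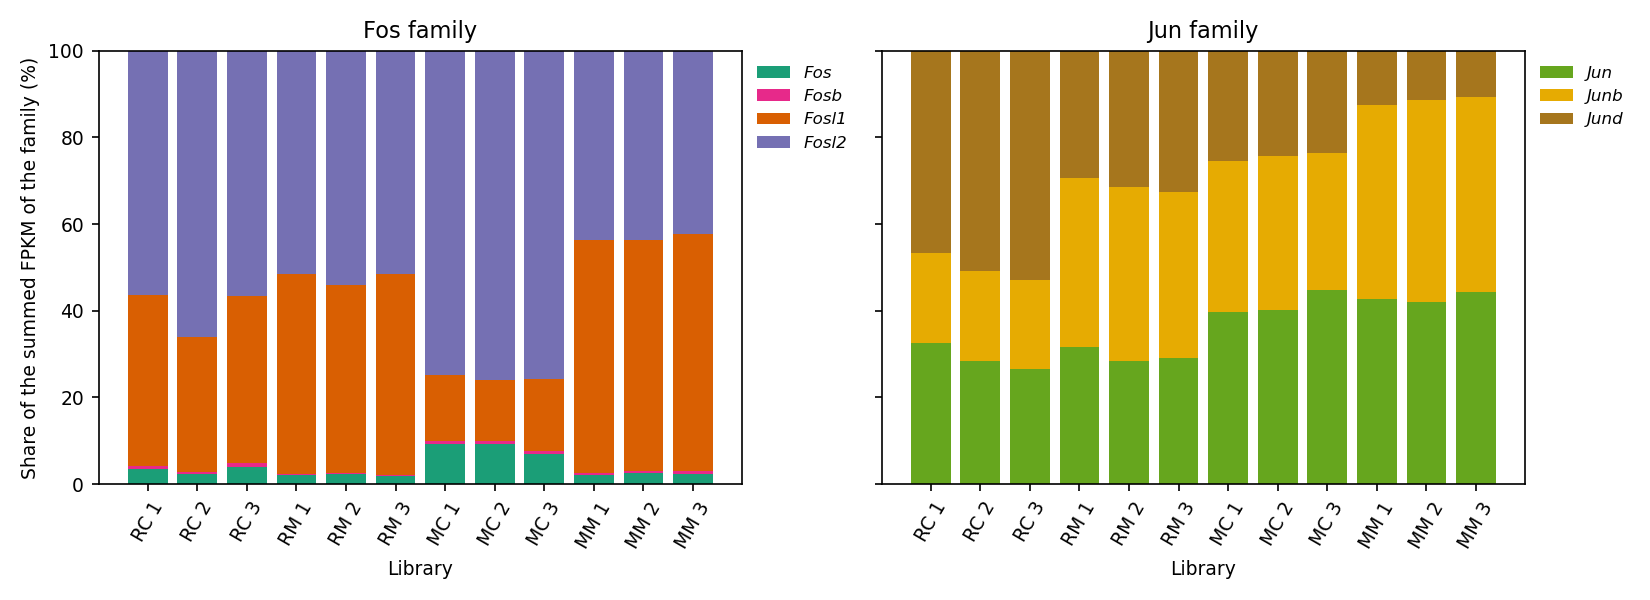
Share of each gene in the summed FPKM of the Fos family (left) and the Jun family (right), in percent, stacked for each of the 12 libraries. The share of Fosl1 is 13.96% to 16.6% in the MC libraries and 53.3% to 54.7% in the MM libraries, and the share of Junb is larger in RM and MM than in RC and MC.

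Other basic leucine zipper factors that can pair with Jun or Fos did not rise in rat. Of 11 tested in rat, 0 were called higher and 6 lower by edgeR (median log2 fold change -0.27), and of 12 tested in mouse 8 were higher and 4 lower (median 0.49). Counts of this and the following lists stand beside 18.3% higher and 16.8% lower among all rat genes tested and 37.4% and 37.7% among all mouse genes, and the share of these partners lower in mouse was near that of all genes. The rat count of 0 was also 0 at an unadjusted P under 0.05, and by DESeq2 and limma. Atf5, a survival factor, fell by 1.33 in rat (adjusted P = 6.781e-06) and 0.39 in mouse on the log2 scale (adjusted P = 3.565e-15). Jdp2, a repressor of AP-1, fell by 1.06 in rat (adjusted P = 1.974e-05) and 1.57 in mouse (adjusted P = 7.394e-36), and Maf fell by 0.67 (adjusted P = 0.0002175) and 2.61 (adjusted P = 3.189e-51). Atf4, the effector of the integrated stress response, fell by 0.57 in rat (adjusted P = 0.0003632) and rose by 0.55 in mouse (adjusted P = 1.506e-25). Mafg, a small Maf like Maff, was at -0.27 in rat (adjusted P = 0.03868) and at 1.41 in mouse (adjusted P = 7.329e-42). The change of each of these 5 differed between the species (adjusted P from 4.135e-11 to 0.0009264). Batf, a partner of Jun in immune cells, was at 0.23 in rat (adjusted P = 0.5197) and rose by 1.59 in mouse (adjusted P = 6.451e-10), a difference of 1.36 (adjusted P = 0.001348). The rat call of Mafg was lost without RC replicate 3 and without any 1 of the RM libraries, at values from -0.31 to -0.19, and in a fit with the replicate number as a block (-0.27).

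Of the 23 other immediate early genes, 20 were tested in rat, with 9 higher and 3 lower (median 0.29), and 21 in mouse, with 17 higher and 1 lower (median 0.84). Ier3, an inhibitor of apoptosis induced by NF-κB, rose by 1.27 in rat (adjusted P = 1.901e-05) and 5.93 in mouse (adjusted P = 6.783e-76). Csrnp1, a nuclear protein known for its induction by Axin, rose by 1.18 (adjusted P = 5.615e-05) and 3.39 (adjusted P = 2.143e-42). The orphan nuclear receptors Nr4a2 and Nr4a3 were at 0.04 (adjusted P = 0.852) and 0.47 (adjusted P = 0.3019) in rat and rose by 4.64 and 4.52 in mouse (adjusted P = 1.752e-58 and 1.168e-31). For all 4 the difference between the species passed the test, at 4.66, 2.21, 4.59 and 4.05. Arc and Klf2 fell by 1.18 and 1.07 in rat (adjusted P = 0.0003343 and 0.0002847), and in mouse they were at 0.28 and 0.25 with TMM and at -0.003 and -0.02 with library size alone. The mouse call of Arc was lost without MC replicate 2, MM replicate 2 or MM replicate 3 (0.23 to 0.28), with DESeq2 (0.29, adjusted P = 0.06029) and with limma on log2(FPKM + 1) (0.0008, adjusted P = 0.9914). The 1 gene lower in mouse was Ccn2, named after its value was seen, a matrix protein that fell by 1.34 in mouse (adjusted P = 2.071e-40) and by 0.48 in rat (adjusted P = 0.0001497).

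Of the 26 kinases and factors upstream of AP-1, 23 were tested in rat, with 8 higher and 3 lower (median 0.12), and 25 in mouse, with 17 higher and 4 lower (median 0.33). Map3k8 (Tpl2), which activates the ERK pathway downstream of IL-1 receptors, rose by 3.08 in rat (adjusted P = 3.822e-07) and 2.21 in mouse (adjusted P = 2.546e-29), and its change was smaller in mouse by 0.87 (-0.87, adjusted P = 0.0007309). Map2k1 (MEK1) rose by 0.25 in rat (adjusted P = 0.0145) and 2.07 in mouse (adjusted P = 1.028e-52). Mapk13 (p38δ) rose by 1.37 in rat (adjusted P = 0.04494, from 58 counts over RC and 154 over RM) and 2.81 in mouse (adjusted P = 5.322e-47). Map3k1 rose by 1.80 in both (adjusted P = 0.005991 and 7.997e-34), from 27 counts over RC and 97 over RM. Map3k5 (ASK1) rose by 0.79 in rat (adjusted P = 0.005862) and was at 0.09 in mouse (adjusted P = 0.512). Map2k6 was lower in both, at -0.61 (adjusted P = 0.03211) and -0.56 (adjusted P = 0.002367). Some rat calls changed with single libraries. That of Map2k1 was lost without RC replicate 3, RM replicate 2 or RM replicate 3 (0.24 to 0.26), that of Mapk13 without RC replicate 2, RM replicate 1 or RM replicate 3 (1.22 to 1.53), and that of Map2k6 without RC replicate 2, RC replicate 3 or any RM library (-0.67 to -0.54). The value of Mapk13 was 0.89 without RC replicate 1 and 1.80 without RC replicate 3. The call of Map2k6 in rat was also lost with DESeq2 (-0.62, adjusted P = 0.06199) and with the replicate number as a block (-0.61, adjusted P = 0.0547).

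Of 17 genes known as AP-1 targets from textbooks, 14 were higher and 2 lower in rat (median 2.05) and 15 were higher and 2 lower in mouse (median 3.65). These genes also respond to NF-κB and other factors. The matrix metalloproteinase Mmp3 (stromelysin 1) rose by 5.92 in rat (adjusted P = 2.181e-11) and 13.30 in mouse (adjusted P = 4.532e-91). The chemokine Ccl2 rose by 5.36 (adjusted P = 1.741e-09) and 9.76 (adjusted P = 5.043e-79), and the prostaglandin synthase Ptgs2 by 2.80 (adjusted P = 7.99e-07) and 9.60 (adjusted P = 1.057e-84). Il6 rose by 3.95 in rat (adjusted P = 7.242e-06) and 12.51 in mouse (adjusted P = 3.158e-74), and Mmp10 by 5.85 (adjusted P = 5.107e-09) and 7.77 (adjusted P = 5.584e-39), each of these from 6 counts over the MC libraries, so that the mouse folds rest on few control reads. Mmp9 rose by 5.19 in rat (adjusted P = 8.422e-08) and 3.83 in mouse (adjusted P = 4.84e-13), without a called difference (-1.34 ± 0.71, SE, adjusted P = 0.1071). Mmp9 had 43 counts over RC and 1591 over RM, but only 10 over MC and 134 over MM. Its mean in MM was 0.665 FPKM, so its mouse fold also rests on few reads. The difference between the species, mouse minus rat, was 8.60 for Il6, 7.38 for Mmp3, 6.81 for Ptgs2, 4.40 for Ccl2 and 1.93 for Mmp10, with adjusted P values from 1.942e-16 to 0.01115. The targets lower in the model groups were Plau and Hmox1 in rat and Plau and Ccnd1 in mouse, named after their values were seen, at -0.32, -0.43, -0.32 and -1.56. By edgeR, Hmox1 rose by 3.31 in mouse (adjusted P = 2.566e-66), and Ccnd1 was at -0.07 in rat (adjusted P = 0.4792).

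**Figure D5:**
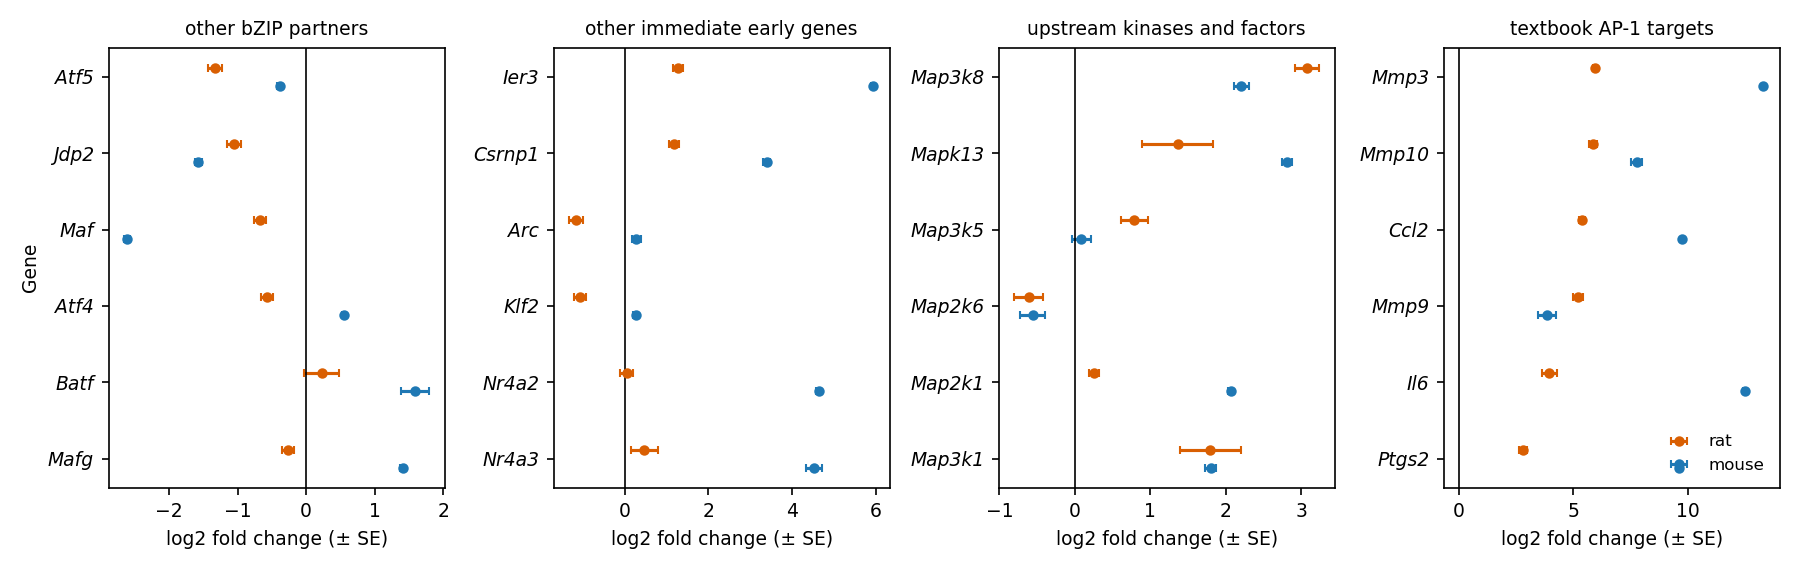
Log2 fold change of model over control (points) with SE (bars) for the other pathway genes named by the rule, in 4 panels (other bZIP partners, other immediate early genes, upstream kinases and factors, and textbook AP-1 targets), rat in orange and mouse in blue. Mmp3, Il6 and Ptgs2 lie farther right in mouse than in rat, whereas Map3k8 lies farther right in rat (3.08 against 2.21).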

How the data were processed

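RNA-seq was analysed for 12 libraries in 4 groups (RC, RM, MC and MM), taken from the treatment labels. The authors deposited whole-number counts per gene and library for each species. The deposited FPKM equal each count divided by gene length and by the library total, within 0.1% for 100% of 78408 rat and 84228 mouse values, and carry no other scaling. The processing notes of the submitters list HISAT2, HTSeq 0.11.2, GRCm38 and Rnor_6.0. The strand setting of the counting is not given in the sources used here. Of the mouse gene lengths behind the FPKM, 96.5% matched merged exons of GENCODE M21 within 1 base, and mouse coordinates are from M21. No rat coordinates but those of the RefSeq promoters (GRCr8) were used.

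Counts were tested in R 4.3.3 with edgeR 4.0.16 (filterByExpr, TMM, glmQLFit and glmQLFTest), 1 fit per species without a block, with Benjamini-Hochberg adjustment over all genes tested. The difference between species came from 1 fit of the genes shared by symbol, with scaling within each species and a common dispersion estimate. Alternatives were other scalings, no filter, DESeq2 1.42.0, limma 3.58.1 on log2(FPKM + 1) or log2(FPKM + 0.1), a replicate block and leaving out each library. The tests were tried on simulated counts carrying known changes in a small part of the genes. Such counts cannot check the scaling where many genes change, as in mouse. Total counts of 16841580 to 25903459 per library set the precision for low genes such as Fosb, and the limit of 3 counts covers counting error only.

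The 10 genes and the lists were chosen with earlier results of these data known, and the list counts are descriptions. Of each other pathway list, the text names the 4 genes per species with the largest absolute log2 fold change among those with an adjusted P under 0.05 and a group mean of 1 FPKM or more. Lists of fibroblast, endothelial and muscle markers were checked as well. Endothelial markers summed to at most 0.505 FPKM in any library.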

Additional observations from a re-analysis of the deposited data

Results flagged for a closer look

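The log2 fold change differed between mouse and rat, under the same stimulus and by the test of the difference itself in the joint edgeR fit, for 8 of the 10 genes. Mouse minus rat, the difference was 5.10 for Atf3, 3.50 for Maff, 3.28 for Fosl1, 3.09 for Fosb, 2.10 for Jun, 1.68 for Jund, 1.59 for Junb and 1.18 for Fosl2. Atf3 was the only 1 of the 10 called in opposite directions, lower in RM and higher in MM. No explanation of these differences was tested, and any batch that follows the species cannot be told apart from them.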

How the results depend on the processing

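Of 430 values of the 10 genes under alternatives, 421 kept their direction and call, 3 turned, 4 gained and 2 lost a call. Of 624 values of the other named genes, 589 kept both, 24 lost the call and 11 turned. The count of genes lower in RM was 1 to 2 when 1 library was left out (2 without RC replicate 1, through Jund). The count lower in MM was 1 with library size alone, through Egr1. Egr1 in mouse turned to -0.11 with library size alone, -0.10 with limma on log2(FPKM + 1) and -0.10 with log2(FPKM + 0.1), settings that scale by the library total only. In these settings Klf2 in mouse was at -0.024, -0.025 and -0.026 and Map3k5 at -0.19, -0.13 and -0.20, and Arc was at -0.003 with library size alone. Leaving out 1 library gave -0.11 to 0.22 for Map3k5 in mouse (-0.0023 without MC replicate 2) and -0.073 to 0.11 for Nr4a2 in rat (-0.019 without RC replicate 2). No cause of these turns was tested. Over all alternatives, 5 to 6 of the 10 genes were higher in RM, 9 to 10 were higher in MM, 2 to 4 passed the DEG criteria in rat and 8 in mouse, and 8 to 9 differed between the species. Of 112 family shares, 28 moved by more than the SD of their libraries, all when counts were not divided by gene length. The other 84 left out 1 library. They could not pass this limit, since leaving out 1 of 3 values shifts their mean by less than the SD. With the replicate number as a block, 6 genes were higher and 1 lower in RM, 10 were higher in MM, 8 differed between the species, and 4 rat genes passed the DEG criteria. No sign of pairing by number was seen, since the deviations of same-numbered libraries correlated at 0.02, -0.10 and 0.08 in rat and 0.0012, 0.01 and 0.0048 in mouse. These correlations cannot exclude that cultures were prepared in matched sets. Depth limits Fosb and Fos in rat, with 59 to 191 counts per group.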
